A study of Mus musculus with 6 samples.

Results

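The Kruppel-like factor genes Klf2, Klf3, Klf4, Klf5, Klf6, Klf7, Klf9, Klf10 and Klf13 were followed in tumor cells from the mammary glands of MMTV-PyVT mice, in which the promoter of the mouse mammary tumor virus drives the polyoma middle T oncogene in mammary epithelium. The members were taken by gene symbol from a list of 9 names. Of these, 8 were among the 10995 genes of the count table, and Klf2 was not among them, so its level was not analysed and only its promoter was. One group of 3 libraries was labelled wild type for the orphan nuclear receptor gene Nr4a1 (WT), and the other group of 3 was labelled Nr4a1-/- (KO). Both groups carried the PyVT transgene on the FVB/NJ strain, and the mice were age matched; the age, the cells in which Nr4a1 was disrupted and the way the tumor cells were isolated are not stated in the labels. Nothing in the labels ties the libraries of a group to separate animals, so the tests measure the spread between libraries, which may be technical.

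Kruppel-like factors are transcription factors that bind CACCC and GC-rich boxes through C2H2 zinc fingers at the C terminus, and their N termini decide whether they activate or repress. Klf4 and Klf5 are best known from epithelia, where Klf4 is tied to differentiation and barrier formation and Klf5 to proliferating cells. Klf3 recruits the CtBP corepressors, Klf9, Klf10 and Klf13 belong to the branch that binds Sin3, and Klf6 and Klf7 are close relatives that mainly activate. Klf2 and Klf4 also act in blood vessel endothelium. Several members, among them Klf4, Klf6 and Klf10, are induced quickly by serum or stress, much as Nr4a1 itself is.

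The start regions of 4 of these genes are shown because Klf4, Klf9 and Klf3 ranked the libraries alike or nearly so, and Klf6 ranked them in an opposing order (Spearman's rho of -0.66 with Klf4 over the 6 libraries). Klf13, which is not shown, was more opposed to Klf4, with a rho of -0.77. Promoter sequences were taken from RefSeq (GRCm38.p6), which held an entry for 7 of the 9 genes and none for Klf5 and Klf10. Only bases before the start of the RefSeq and of the GENCODE gene model are printed, and capitals mark the GC box GGGCGG, the CACCC box CACCC and the CCAAT box CCAAT on either strand. Klf4 is shown from chr4:55532476-55532725, minus strand, Klf9 from chr19:23140976-23141225, plus strand, Klf3 from chr5:64803271-64803387, plus strand, and Klf6 from chr13:5861239-5861481, plus strand.
Klf4: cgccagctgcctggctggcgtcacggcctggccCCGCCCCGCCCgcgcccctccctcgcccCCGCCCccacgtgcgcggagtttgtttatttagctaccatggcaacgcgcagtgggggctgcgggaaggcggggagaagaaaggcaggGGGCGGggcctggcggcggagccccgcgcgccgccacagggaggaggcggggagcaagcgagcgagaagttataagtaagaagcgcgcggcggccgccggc
Klf9: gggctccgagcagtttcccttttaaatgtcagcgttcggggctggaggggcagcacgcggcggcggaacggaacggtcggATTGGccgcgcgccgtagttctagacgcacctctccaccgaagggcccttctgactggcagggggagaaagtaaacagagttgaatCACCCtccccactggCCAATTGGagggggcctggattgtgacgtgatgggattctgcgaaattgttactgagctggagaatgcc
Klf3: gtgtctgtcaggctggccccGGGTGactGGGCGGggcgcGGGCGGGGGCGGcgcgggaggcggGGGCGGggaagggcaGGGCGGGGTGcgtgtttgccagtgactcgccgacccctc
Klf6: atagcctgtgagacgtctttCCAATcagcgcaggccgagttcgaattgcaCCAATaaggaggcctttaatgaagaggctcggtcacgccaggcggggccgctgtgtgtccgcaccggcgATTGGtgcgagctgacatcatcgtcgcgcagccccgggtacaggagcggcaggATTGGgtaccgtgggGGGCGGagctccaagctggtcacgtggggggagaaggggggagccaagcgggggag

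In the 250 bases before the RefSeq start, the GC box occurred 4 times at Klf4, 6 times at Klf3, 3 times at Klf13, 2 times at Klf2, 1 time each at Klf6 and Klf7, and 0 times at Klf9. It occurred in 6 of the 7 members' promoters, against 32.7% of all 32851 promoter entries. The CACCC box, which Kruppel-like factors bind, was matched in 5 of the 7, with 5 matches at Klf3 and 0 at Klf4 and Klf6, against 52.0% of all entries. At Klf3 and at Klf13, 1 CACCC match overlapped a GC box. These windows ran past the GENCODE start at Klf3, Klf2 and Klf6, where 117, 221 and 243 bases lay before it. In those bases Klf3 had 5 GC boxes and 2 CACCC boxes, and Klf2 had 2 GC boxes and 0 CACCC boxes. The CCAAT box was matched 4 times at Klf6, 3 times at Klf9, 2 times at Klf13 and 0 times at the others, against 33.8% of all entries. The NBRE, the element AAAGGTCA that NR4A receptors bind as monomers, was matched in 0 of the 7 windows and in 1.34% of all entries. The CArG box of serum response, the AP-1 element (TGACTCA or TGAGTCA) and the full cyclic AMP element TGACGTCA were likewise matched in 0 of the 7 windows, against 1.47%, 4.46% and 1.55% of all entries. The core TGACG of the cyclic AMP element had 1 match each at Klf2, Klf4, Klf9 and Klf13, against 17.8% of entries. The members' windows held between 59.2% and 78.4% G or C, the lowest being that of Klf7, whose RefSeq window lies inside the gene, against a median of 52.4% over all entries.

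Libraries held between 19569173 and 24188875 counts, and counting error is small for every member at these depths, since the lowest count of any was 316. WT replicate 1 stood apart on the first principal component, at -51.3, while the other libraries lay between -2.22 and 28.8. The Nr4a1 transcript itself was not lower in the libraries labelled KO, at 34.5, 18.6 and 16.8 CPM (read counts scaled to depth, with TMM-adjusted library sizes) in WT replicates 1, 2 and 3 and 25.1, 35.5 and 37.6 CPM in KO replicates 1, 2 and 3. Its log2 fold change of KO over WT was 0.49 (SE 0.32, edgeR adjusted p = 0.59), 0.88 without WT replicate 1 and 0.31 without WT replicate 3. Whether these reads cover the disrupted stretch of the allele cannot be seen in gene counts, so all directions here are between libraries as labelled. Luminal epithelial markers were present in all libraries, with 9 of 12 in the table, and none of the 7 T cell or 4 B cell markers was in the table.

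Across the 8 measured genes, transcript levels were lower on average in the libraries labelled KO for 7 and higher for 1, but no member passed the test. The median log2 fold change was -0.23, beside -0.0024 over all 10995 genes, of which 5559 were below 0. The members' fold changes ran from -1.11 for Klf4 to 0.07 for Klf13. The edgeR quasi-likelihood test called 0 of the 8 at an adjusted p under 0.05 (smallest adjusted p 0.57), and over all genes it called 0.00%. At an unadjusted p under 0.05 it gave 0 members lower, against 4.17% of all genes, and 0 higher, against 3.70%. The WT and KO levels overlapped for all 8 members, whereas all KO libraries lay below all WT libraries for 9.05% of genes and above them for 8.39%. DESeq2 called 0 members, with 1, Klf4, at an unadjusted p under 0.05, and it called 0.938% of the genes for which it gave an adjusted p. In limma-voom 0 members passed and 0 had an unadjusted p under 0.05. In these bulk libraries fewer cells of a type and less RNA per cell cannot be told apart.

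**Figure D1:**
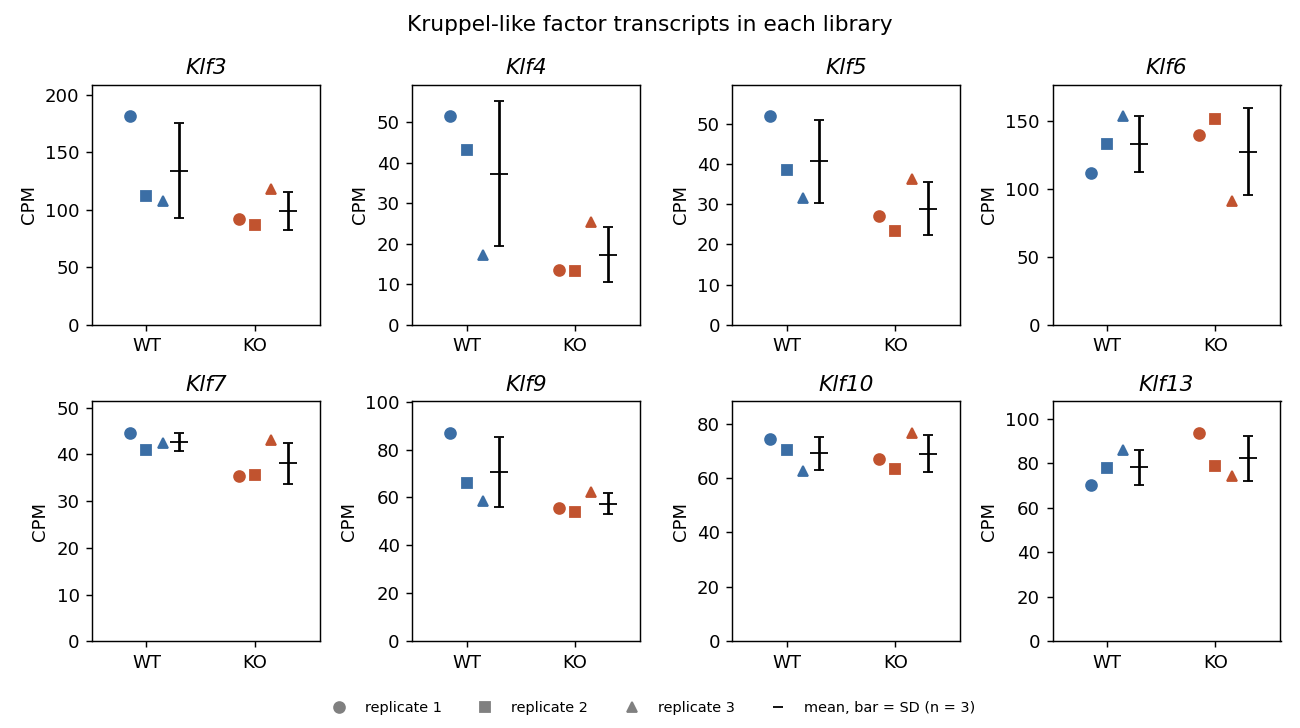
Level of each measured Kruppel-like factor in CPM (vertical axes, each starting at 0) in the 3 WT libraries (blue) and the 3 KO libraries (orange), with marker shapes for replicates 1 to 3 and the group mean with its SD in black. The groups overlap in every panel, and Klf4 in WT replicates 1 and 2, at 51.5 and 43.2 CPM, lies far above the other 4 libraries.

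Klf4, which drives differentiation in squamous and glandular epithelia, differed most between the groups and also most within them. Klf4 (ENSMUSG00000003032.8, chromosome 4, 55527143 to 55532466, minus strand, GRCm38) had 1063, 941 and 368 counts in WT replicates 1, 2 and 3 and 328, 316 and 501 in KO replicates 1, 2 and 3. These were 51.5, 43.2 and 17.3 CPM with the WT label and 13.5, 13.2 and 25.3 CPM with the KO label. WT replicates 1 and 2 were high, WT replicate 3 stood below KO replicate 3, and KO replicates 1 and 2 were the lowest and nearly equal. The mean was 37.3 CPM ± 17.8 (SD, n = 3) against 17.3 CPM ± 6.89 (SD, n = 3), 53.6% lower. Its log2 fold change was -1.11 (SE 0.47, 95% interval -2.25 to 0.03), which did not pass the edgeR test (adjusted p = 0.57). A two-sided exact permutation test on log2 CPM returned p = 0.2, and it cannot go below 0.1 in this design; for the other 7 members it lay between 0.2 and 1. Within WT alone the highest library was 2.97 times the lowest, which exceeds the difference between the group means.

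Klf5, a factor of proliferating epithelial cells, followed the same order of libraries with a smaller range. Klf5 (ENSMUSG00000005148.8, chromosome 14, 99298691 to 99315036, plus strand) stood at 52.0, 38.6 and 31.6 CPM in WT replicates 1, 2 and 3 and at 27.1, 23.4 and 36.2 CPM in KO replicates 1, 2 and 3. KO replicates 1 and 2 lay below all WT libraries, and KO replicate 3 lay above WT replicate 3. The WT mean was 40.7 CPM ± 10.3 (SD, n = 3) and the KO mean 28.9 CPM ± 6.59 (SD, n = 3), a log2 fold change of -0.50 (SE 0.24, 95% interval -1.08 to 0.09, edgeR adjusted p = 0.57). Without WT replicate 1 it was -0.28.

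Among the members known as repressors, Klf3 and Klf9 were lower on average with the KO label, and Klf10 and Klf13 had nearly equal group means. Klf3 (ENSMUSG00000029178.14, chromosome 5, 64803388 to 64832901, plus strand) stood at 181, 112 and 108 CPM in the WT libraries and 92.3, 86.5 and 118 CPM in the KO libraries, in replicate order. WT replicate 1 was far above the rest, and KO replicate 3 was above WT replicates 2 and 3. In the fit it had a log2 fold change of -0.44 (SE 0.24, 95% interval -1.02 to 0.15, edgeR adjusted p = 0.57), and -0.15 without WT replicate 1. Its exons share 404 bases with Gm20033 on the opposite strand, and whether counting used strand is not stated.

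Klf9, which glucocorticoids induce, was at 87.0, 66.2 and 58.5 CPM in WT replicates 1, 2 and 3 and at 55.7, 54.0 and 62.4 CPM in KO replicates 1, 2 and 3. Klf9 (ENSMUSG00000033863.2, chromosome 19, 23141226 to 23168134, plus strand) overlapped between the groups through KO replicate 3 alone, which lay above WT replicate 3. The KO libraries were close together, at 57.4 CPM ± 4.44 (SD, n = 3), while WT stood at 70.6 CPM ± 14.7 (SD, n = 3). The log2 fold change of -0.30 (SE 0.16, 95% interval -0.68 to 0.09, edgeR adjusted p = 0.57) was -0.12 without WT replicate 1.

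Klf10, which TGF-beta induces, had almost the same mean in both groups, 69.2 CPM ± 6.03 (SD, n = 3) with the WT label and 69.0 CPM ± 6.84 (SD, n = 3) with the KO label. Klf10 (ENSMUSG00000037465.10, chromosome 15, 38291463 to 38300706, minus strand) stood at 74.4, 70.5 and 62.6 CPM in the WT libraries and at 66.9, 63.5 and 76.7 CPM in the KO libraries. Both its highest and its lowest value fell in a replicate 3, KO and WT respectively, and the other 4 lay between. The 95% interval of its log2 fold change ran from -0.26 to 0.25 (edgeR adjusted p = 0.99), and its sign depended on the scaling and on single libraries, at 0.02 with library size alone.

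Klf13, first known as an activator of the chemokine gene Ccl5 in T cells, was the 1 member with a higher mean in KO. Klf13 (ENSMUSG00000052040.10, chromosome 7, 63886351 to 63938915, minus strand) stood at 70.4, 78.0 and 86.1 CPM in WT replicates 1, 2 and 3 and at 93.7, 78.6 and 74.2 CPM in KO replicates 1, 2 and 3. KO replicate 1 was the highest library and WT replicate 1 the lowest, with the other 4 interleaved. In the fit it had a log2 fold change of 0.07 (SE 0.12, 95% interval -0.22 to 0.36, edgeR adjusted p = 0.82), and -0.03 without KO replicate 1.

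Klf6 and Klf7, close relatives of each other, had nearby group means, and neither passed the test. Klf6 (ENSMUSG00000000078.7, chromosome 13, 5861482 to 5870394, plus strand), an early response gene studied as a tumor suppressor, stood at 112, 133 and 154 CPM in the WT libraries and at 140, 152 and 90.8 CPM in the KO libraries. KO replicate 3 was the lowest of the 6 and the other KO libraries were among the highest 3, so KO spanned nearly the whole range. In the fit it had a log2 fold change of -0.06 (SE 0.22, 95% interval -0.60 to 0.48, edgeR adjusted p = 0.92), and it was 0.06 without WT replicate 3 and 0.13 without KO replicate 3.

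Klf7, a factor of neuronal and fat cell development, was the steadiest member within WT. Klf7 (ENSMUSG00000025959.13, chromosome 1, 64029447 to 64122282, minus strand) stood at 44.6, 40.9 and 42.4 CPM in the WT libraries and at 35.5, 35.6 and 43.1 CPM in the KO libraries. KO replicates 1 and 2 lay below all WT libraries, and KO replicate 3 lay within the WT range. In the fit it had a log2 fold change of -0.16 (SE 0.10, 95% interval -0.41 to 0.08, edgeR adjusted p = 0.59). Klf7 shares 3196 exon bases with the noncoding gene Gm26649 on the opposite strand. Read on either strand, 41.2% of the 31-base words of its longest transcript are found in transcripts of another gene, mainly Gm26649. This share and the shared exon bases are thus not independent. The counts of Klf7 are uncertain, since whether counting used strand is not stated. For the other 7 measured members the share of such words was between 0% and 7.74%, highest at Klf3, where it was mainly with Gm20033.

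**Figure D2:**
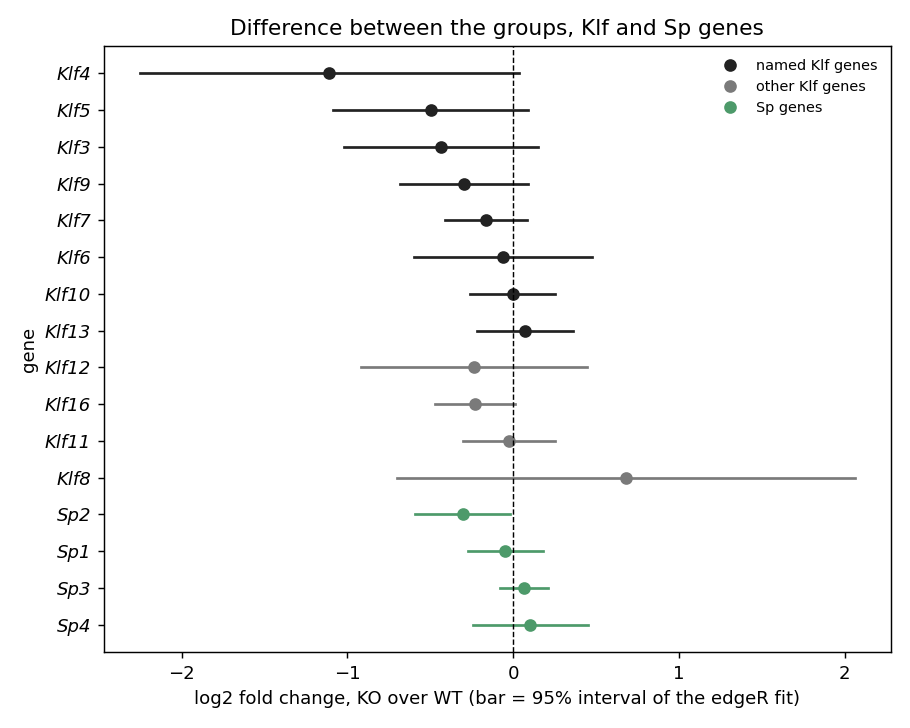
Log2 fold change of KO over WT (horizontal axis) with the 95% interval of the edgeR fit for the 8 measured Kruppel-like factors (black), the 4 other Klf genes in the table (grey) and the 4 Sp genes (green). Every interval of a Klf gene includes 0 and Klf4 and Klf8 have the widest ones, while the interval of Sp2 lies below 0.

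Per kilobase of annotated exon, and averaged over the 6 libraries, Klf6 was the most abundant member at 29.6 CPM per kb ± 5.57 (SD, n = 6). It was followed by Klf10 at 16.5 ± 1.38, Klf9 at 13.3 ± 2.52, Klf13 at 10.6 ± 1.12, Klf3 at 10.4 ± 3.03, Klf4 at 8.96 ± 5.35, Klf5 at 6.69 ± 1.94 and Klf7 at 4.96 ± 0.482 CPM per kb (SD, n = 6). The ranges of 1 SD of neighbours in this order overlap, except between Klf6 and Klf10. The length used matters for Klf3, whose annotated exons sum to 11243 bases but whose longest transcript has 5221. With the longest transcript Klf3 stood at 22.3 CPM per kb and Klf5 at 10.4 CPM per kb, and the order became Klf6, Klf10, Klf3, Klf9, Klf13, Klf5, Klf4, Klf7.

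Klf4, Klf5 and Klf9 placed the 6 libraries in exactly the same order, which was WT replicate 1, WT replicate 2, KO replicate 3, WT replicate 3, KO replicate 1 and KO replicate 2 from high to low. Over all genes, 60 of 10995 (0.546%) had this order. It is a pattern noticed in these values, and it crosses the labels, since KO replicate 3 ranked above WT replicate 3. Klf3 differed from it only in that KO replicate 3 stood above WT replicate 2. Klf6 and Klf10 had exactly opposite orders, with Klf6 lowest and Klf10 highest in KO replicate 3.

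Over the 6 libraries, Pearson's r of log2 CPM was 0.94 for Klf4 with Klf5, 0.96 for Klf5 with Klf9, 0.96 for Klf3 with Klf5 and -0.94 for Klf6 with Klf10, and Spearman's rho for these pairs was 1, 1, 0.94 and -1. Without WT replicate 1 the r values were 0.91, 0.97, 0.95 and -0.95. Other pairs moved more without that library. Klf3 with Klf9, the pair with the highest r, went from 0.98 to 0.88, Klf3 with Klf4 from 0.85 to 0.78 and Klf4 with Klf9 from 0.91 to 0.98. These are descriptions over libraries that share their scaling and the shift of WT replicate 1, and they were picked from 28 pairs. WT replicate 1 was the highest library for 5 of the 8 members, namely Klf3, Klf4, Klf5, Klf7 and Klf9, against 32.2% of all genes, and the lowest for Klf13 alone, against 31.6% of all genes. Klf4 in WT replicate 1 was 2.97 times the median of the other 5 libraries, and Klf3 1.68 times.

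**Figure D3:**
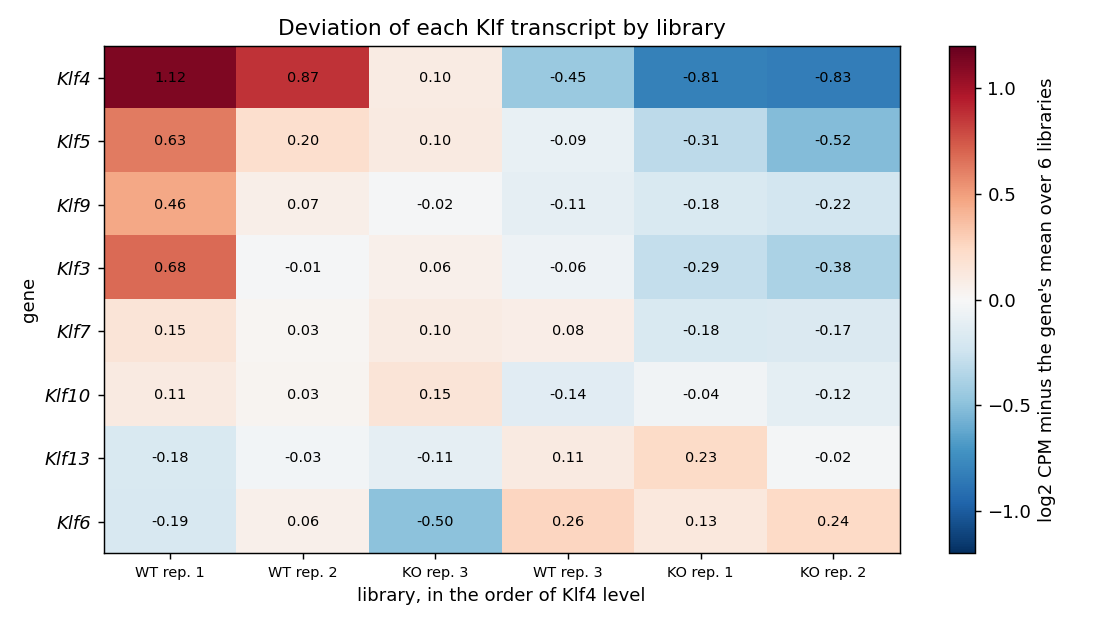
Deviation of log2 CPM from each gene's mean over the 6 libraries, with genes in rows and libraries in columns ordered by their level of Klf4; red is above and blue below the mean. Klf4 runs from 1.12 in WT replicate 1 to -0.83 in KO replicate 2, Klf5 and Klf9 follow the same order, and Klf6 is lowest in KO replicate 3 at -0.50.

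Levels of cell type markers also differed between the libraries. The summed level of the 4 listed squamous markers of 6 (Krt6a, Krt6b, Krt16 and Evpl) was 135, 235 and 67.9 CPM in WT replicates 1, 2 and 3 and 26.5, 21.9 and 65.7 CPM in KO replicates 1, 2 and 3, so it was highest in the 2 libraries that were highest for Klf4. Krt6a and Krt6b are close paralogs, and how reads were split between them is uncertain. Singly, 1 of the 4 had all KO libraries below all WT libraries, against 9.05% of all genes. The 8 listed pericyte and smooth muscle markers of 10 summed to between 336 and 1123 CPM in WT and between 917 and 2021 CPM in KO, with WT replicate 1 the lowest. The 6 fibroblast markers of 9 summed to between 2253 and 5459 CPM in WT and between 4836 and 8856 CPM in KO. The 10 macrophage markers of 11 summed to between 817 and 953 CPM in WT and between 1160 and 1324 CPM in KO. Taken singly, 9 of these 10 had a log2 fold change above 0, and 1 had all KO libraries above all WT libraries. The latter held for 5 of the 8 pericyte and smooth muscle markers, 0 of the 6 fibroblast markers and 8.39% of all genes. The 9 luminal markers of 12 summed to between 4724 and 5309 CPM in WT and between 3250 and 4270 CPM in KO. Singly, 2 of the 9 had all KO libraries below all WT libraries. The 7 basal markers of 7 summed to between 1111 and 2857 CPM in WT and between 2050 and 2446 CPM in KO. For 1 of the 7, all KO libraries lay above all WT libraries. Acta2 is in this list and in that of pericytes and smooth muscle, so these sums are not separate. Endothelial markers were listed for 3 of 12 (Esam, Flt1 and Eng), with sums of 29.0 to 73.9 CPM in WT and 75.7 to 219 CPM in KO. Singly, 1 of the 3 had all KO libraries above all WT libraries, and the defining genes Pecam1 and Cdh5 were not in the table. Of the adipocyte markers, only Fabp4 of 5 was in the table, at 2.45 to 4.27 CPM in WT and 26.6 to 78.1 CPM in KO. Adipoq, Plin1, Cidec and Lep were not in it, and whether Fabp4 alone stands for adipocytes was not tested. The part of these cell types in the levels of the Kruppel-like factors was not tested.

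Of the 9 other Klf genes sought, 4 were in the table and 0 passed the edgeR test over all genes. Klf16, of the Sin3-binding branch, stood at 35.3, 29.6 and 31.7 CPM in WT replicates 1, 2 and 3 and at 27.4, 29.1 and 25.9 CPM in KO replicates 1, 2 and 3. Of the 12 Klf genes in the table, Klf16 alone had groups that did not overlap, while all KO libraries lay below all WT libraries for 9.05% of all genes. The log2 fold change of Klf16 was -0.23 (SE 0.10, edgeR adjusted p = 0.57). Klf8, a partner of CtBP like Klf3, varied most, from 2.57 CPM in WT replicate 1 to 13.8 CPM in KO replicate 2. Its other levels were 7.25 and 10.3 CPM in WT replicates 2 and 3 and 12.7 and 5.65 CPM in KO replicates 1 and 3, with a log2 fold change of 0.68 (SE 0.56, edgeR adjusted p = 0.64). It was 0.29 without WT replicate 1 and 1.13 without WT replicate 3. Klf12, likewise a CtBP partner, had -0.24 (SE 0.28), and Klf11 of the Klf10 branch had -0.02 (SE 0.11). The signs of Klf11 and Klf12 turned without WT replicate 1, and that of Klf11 also without KO replicate 2 and with library size alone.

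The Sp factors bind the same GC boxes through related zinc fingers, and 4 of 9 were in the table with 0 passing. Sp2 stood at 23.5, 19.2 and 21.7 CPM in WT and at 16.1, 17.3 and 18.7 CPM in KO, without overlap and with a log2 fold change of -0.30 (SE 0.12, edgeR adjusted p = 0.57). Sp3 stood at 78.6, 75.5 and 75.7 CPM in WT and at 82.2, 78.8 and 79.2 CPM in KO. Its groups did not overlap either, with all KO libraries above, by 0.06 on the log2 scale (SE 0.06). Over all genes, KO lay wholly below WT for 9.05% and wholly above it for 8.39%. Sp1 and Sp4 overlapped, with log2 fold changes of -0.05 and 0.10, and the sign of Sp1 turned without KO replicate 2.

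Genes for the proteins through which Kruppel-like factors work gave 0 calls. Of the corepressor genes 10 of 11 were listed, 5 above and 5 below 0, with a median log2 fold change of 0.01 and 0 passing. Ctbp1, the corepressor of Klf3, stood at 184 CPM ± 10.3 (SD, n = 3) in WT and 169 CPM ± 5.86 (SD, n = 3) in KO. Its groups all but met, at 175.496 CPM in WT replicate 3 and 175.485 CPM in KO replicate 1. Ctbp2, Hdac3 and Ncor1 had log2 fold changes of -0.17, -0.17 and 0.08. All 5 coactivator genes lay below 0, with a median of -0.11 and 0 passing, but 4 of 5 did so without WT replicate 1, where Ep300 turned to 0.01, and 4 of 5 without WT replicate 3. Wdr5, Kat2b and Crebbp had -0.12, -0.11 and -0.12. Without WT replicate 1, Wdr5 was at -0.064 and Crebbp at -0.012, and without KO replicate 2 Kat2b was at -0.041. Of the 11 genes for ubiquitin ligases and proteases that act on Kruppel-like factors, 6 were below 0, with a median of -0.04 and 0 passing. Smurf1 was at 347, 200 and 225 CPM in WT and 197, 188 and 154 CPM in KO, a log2 fold change of -0.52 (SE 0.23) that was -0.24 without WT replicate 1, and Usp10, Atxn3 and Smurf2 had -0.13, 0.13 and -0.15.

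Upstream of Klf2 and Klf4, the path from mechanical stimuli through the kinase ERK5 had 11 of 12 genes listed, with 6 below 0, a median of -0.04 and 0 passing. Heg1, a receptor that binds the CCM complex, stood at 500 CPM in WT replicate 1 against 129 to 240 CPM in the other 5 libraries, and its log2 fold change of -0.66 became 0.06 without that library. Mef2d, Piezo1 and Pdcd10 had -0.08, -0.19 and 0.08. Leaving out 1 library brought Mef2d to -0.040 (WT replicate 1), Piezo1 to -0.045 (WT replicate 3) and Pdcd10 to 0.034 (KO replicate 3). Of 9 textbook vessel targets of Klf2 and Klf4, 2 were listed. Thbd, thrombomodulin, stood at 6.25, 14.0 and 10.9 CPM in WT and 30.9, 50.1 and 17.0 CPM in KO, with all KO libraries above WT. Its log2 fold change of 1.65 (SE 0.47) did not pass the edgeR test (adjusted p = 0.57), while DESeq2 gave an adjusted p of 0.0413. Cdkn1a, the cell cycle inhibitor, had 0.04 (SE 0.35), which turned to -0.22 without WT replicate 1, to -0.05 without KO replicate 1 and to -0.14 without KO replicate 2.

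Immediate early genes, the class to which several members belong, had lower means in KO for most of those listed. Of 18 sought, 16 were listed, 12 below 0, with a median log2 fold change of -0.33, 5 at an unadjusted edgeR p under 0.05 and lower (4.17% of all genes), and 0 passing. Without WT replicate 1 the median was -0.19, with 13 below 0 and 5 at an unadjusted p under 0.05 and lower. That last count was 1 without KO replicate 1 or KO replicate 2, 3 without WT replicate 2 or KO replicate 3, and 9 without WT replicate 3. Zfp36, an RNA decay factor, stood at 41.0, 38.3 and 42.1 CPM in WT and at 27.8, 30.98 and 33.6 CPM in KO, a log2 fold change of -0.39 (SE 0.10, edgeR adjusted p = 0.57). Ier2 averaged 71.9 CPM ± 4.70 (SD, n = 3) in WT and 56.7 CPM ± 7.58 (SD, n = 3) in KO. Atf3, a stress factor, was at 26.3, 9.77 and 9.84 CPM in WT and at 6.86, 7.21 and 6.41 CPM in KO, and Jund at 178, 113 and 102 CPM in WT and 90.6, 81.1 and 92.2 CPM in KO. The log2 fold changes of Atf3 and Jund were -1.16 and -0.57, and -0.52 and -0.29 without WT replicate 1. For 5 of the 16, all KO libraries lay below all WT libraries, as they did for 9.05% of all genes.

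Companions of single members gave 0 calls as well. Of the glucocorticoid responsive genes set beside Klf9, 7 of 8 were listed, with 4 above 0 and a median of 0.11. Fkbp5, a chaperone induced by glucocorticoids, stood at 13.2, 22.8 and 22.3 CPM in WT and at 28.5, 35.3 and 24.4 CPM in KO without overlap, a log2 fold change of 0.60 (SE 0.25), while Klf9 lay at -0.30. The other 3 with the smallest unadjusted p were Dusp1 (log2 fold change -0.95, and 0.03 without WT replicate 1), Tsc22d3 (0.24) and the glucocorticoid receptor gene Nr3c1 (0.11). Dusp1 is also counted among the immediate early genes above. Of the TGF-beta genes set beside Klf10, 9 of 9 were listed, with 3 above 0, a median of -0.04 and 0 passing. Smad3 averaged 138 CPM ± 15.8 (SD, n = 3) in WT and 107 CPM ± 9.06 (SD, n = 3) in KO without overlap, and Tgfbr1 and Tgfbr2, receptors of TGF-beta, had log2 fold changes of 0.57 and 0.19. Of the partners and targets of Klf4 and Klf5 in epithelia, 11 of 14 were listed, 7 below 0, with a median of -0.26 and 0 passing. The keratins Krt19 and Krt18 were at -0.51 (SE 0.14) and -0.50 (SE 0.19) on the log2 scale, Notch1 -0.26 (SE 0.10) and Cdh1, E-cadherin, -0.29 (SE 0.14). Krt19, Krt18 and Cdh1 are also among the luminal markers summed above, so their values are not separate from that sum. Cdkn1a is counted both here and among the vessel targets.

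The genes most like each member were ranked by Pearson's r of log2 CPM over the 6 libraries. Those closest to Klf4 were Bin3 (0.993) and Spsb3 (0.983), those closest to Klf5 were Tmem134 (0.994) and Tax1bp3 (0.991), and those closest to Klf9 were Ptpn14 (0.996) and Sypl (0.996). Klf3 was closest to Vsig10 (0.998) and B9d1 (0.997), Klf6 to Dock5 (0.997) and Clcn5 (0.993), and Klf7 to Nfyc (0.994) and Ankzf1 (0.989). Klf10 was closest to Arhgap5 (0.996) and Col25a1 (0.994), and Klf13 to Prps1 (0.991) and Zfp87 (0.965). With 6 libraries such values are common: 308 genes had an r over 0.95 with Klf3 and 231 with Klf9, but 30 with Klf4 and 9 with Klf13.

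The difference between the groups rested on single libraries for several members. Without KO replicate 3, Klf4, Klf5 and Klf7 had log2 fold changes of -1.48, -0.69 and -0.26 with unadjusted edgeR p of 0.0314, 0.0341 and 0.0240. Without WT replicate 3, Klf4, Klf5 and Klf9 had -1.45, -0.64 and -0.41 with unadjusted edgeR p of 0.00728, 0.0409 and 0.0334. Without WT replicate 1 the median of the members went from -0.23 to -0.14, and Klf3, Klf5 and Klf9 stood at -0.15, -0.28 and -0.12, while Klf4 stood at -0.81. In each of these fits 0 members passed after adjustment over all genes. Leaving out 1 library moved the log2 fold change by a factor of over 1.5, up or down, for 7 of the 8 members. The same held for 31 of the 43 other genes named by rule. Members near 0, such as Klf6, Klf10 and Klf13, pass such a ratio easily. Klf4 did not pass it, but its range on the log2 scale, -1.48 to -0.81, was the widest of the members. Its unadjusted edgeR p ran from 0.00728 to 0.154 in these fits. Without WT replicate 1, Fkbp5 went from 0.60 to 0.38 and Cdh1 from -0.29 to -0.19. The list medians that lay within 0.05 of 0 (Sp factors, corepressors, ubiquitin ligases and proteases, the ERK5 path and the TGF-beta genes) each changed sign with at least 1 library left out.

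**Figure D4:**
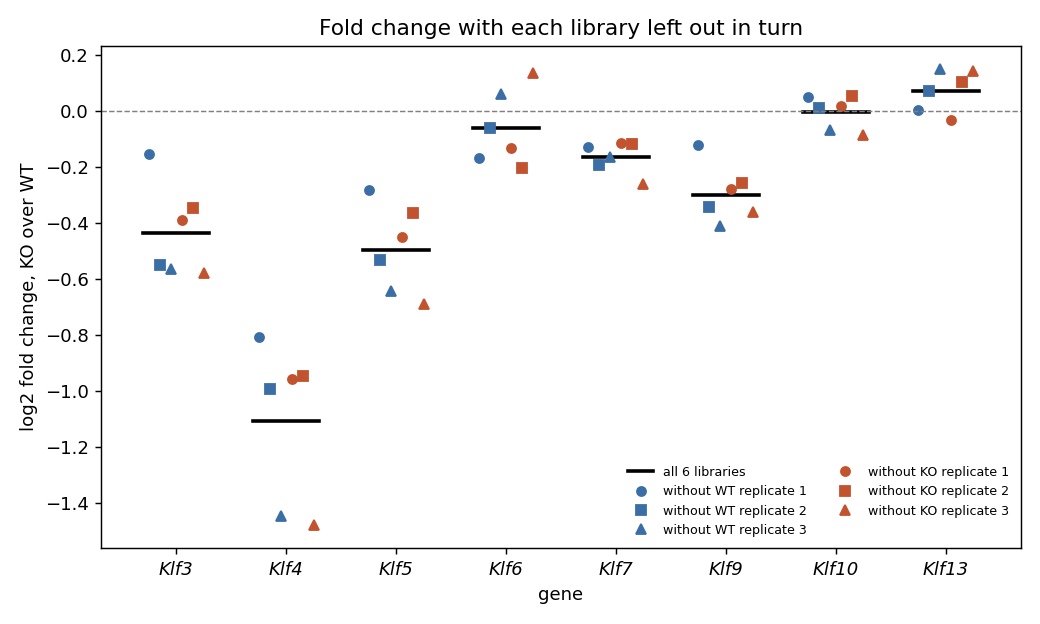
Log2 fold change of KO over WT (vertical axis) of each measured Kruppel-like factor with all 6 libraries (black line) and with each library left out in turn (blue for a WT and orange for a KO library, marker shapes for replicates). Klf4 stays between -1.48 and -0.81, Klf3 moves from -0.44 to -0.15 without WT replicate 1, and Klf6, Klf10 and Klf13 fall on both sides of 0.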

How the data were processed

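The authors deposited raw read counts per gene symbol for 6 libraries, 3 WT and 3 KO, without normalization. Per the submitters' processing notes, CASAVA 1.8, HISAT2 and featureCounts were used with build GRCm38 (mm10); annotation and strand rule are not stated there. Every gene in the table reached 133 counts or more in some library, so low genes had been left out before deposit. Depth was 19569173 to 24188875 counts per library.

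Counts of all 10995 genes were fitted with edgeR 4.0.16 (R 4.3.3; filterByExpr, which removed 0 genes, TMM scaling, robust quasi-likelihood F test, group as the only term, Benjamini-Hochberg at 0.05). CPM use TMM-adjusted library sizes. Log2 fold changes are KO over WT; log2 CPM used a prior count of 2. DESeq2 1.42.0, limma-voom (limma 3.58.1), other scalings, no filter, the replicate number as a block and each library left out were alternatives. Positions and exon lengths came from GENCODE M21 with Python 3.11.15; 10921 symbols matched 1 gene. Deviations of same-numbered libraries from their group means had r = -0.11, 0.35 and -0.25 for numbers 1, 2 and 3, so only number 2 was positive. WT replicate 1 with KO replicate 3, which differ in number, also had 0.35.

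The members and lists were chosen with earlier results of these data known. Named genes were the members, all listed Klf and Sp genes, the 4 genes of each other list with the smallest unadjusted p, Nr4a1, and the 2 genes most like each member; cell type markers are named to define their lists. The values of 1 gene that this rule names are not reported here.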

Additional observations from a re-analysis of the deposited data

How the results depend on the processing

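No Kruppel-like factor passed in any of 13 refits or at a threshold of 0.1, and the smallest adjusted p of a member was 0.334, for Klf4 in DESeq2. Over all genes edgeR called 0 and DESeq2 103, and edgeR called between 0 and 2 with a library left out, the 2 without WT replicate 2. The fit with no filter repeated the main fit, since the filter had removed 0 genes. The fit without the robust option gave the members the same log2 fold changes, so neither refit could turn a sign. Counted over all pairs of a member and a refit, log2 fold changes kept their sign in 96 cases and turned in 8. With each library left out in turn, those that turned ran from -0.20 to 0.13 for Klf6 (above 0 without WT replicate 3 or KO replicate 3), -0.084 to 0.053 for Klf10 and -0.033 to 0.15 for Klf13 (below 0 without KO replicate 1). With library size only, Klf10 was at 0.022 and Klf11 at 0.0027. Among the other named genes, the ranges with a library left out that crossed 0 were -0.10 to 0.051 for Klf11, -0.42 to 0.0092 for Klf12, -0.11 to 0.0026 for Sp1, -0.11 to 0.014 for Ep300, -0.95 to 0.059 for Heg1, -1.32 to 0.029 for Dusp1 and -0.22 to 0.28 for Cdkn1a; the cause was not tested. Replicate numbers share only a number here; the fit with the replicate block called 0 genes and 0 members and put Klf4 at -1.07. With 3 libraries a group the 95% interval of Klf4 ran from -2.25 to 0.03 before adjustment.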
